A study of Mus musculus with 12 samples.

Results

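The genes described here are 9 genes of MHC class II antigen presentation, H2-Aa, H2-Ab1, H2-Eb1, H2-DMa, H2-DMb1, Cd74, Ciita, Cd86 and Cd80. They were chosen by name, as the rows of the count table whose Ensembl gene carries one of these symbols, and all 9 were found among 46078 rows. All 9 were also among the 15866 genes that passed the filter on low counts. The RNA came from spinal cord white matter of C57Bl6 mice, cut out of frozen sections by laser capture and pooled from 5 mice per library, with no genetic alteration named for any group. Young mice were 6 weeks old and middle-aged mice 8 months old. At each age 3 pools came from naïve mice and 3 pools from mice 72 h (day 3) after lysolecithin, a detergent-like lipid that strips myelin, had been injected into the ventrolateral white matter. Per the labels the injection was given to the injured animals, so the effect of the toxin and that of the needle cannot be told apart.

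MHC class II molecules are pairs of an alpha and a beta chain that carry peptides from engulfed proteins to the cell surface, where CD4+ T cells read them. The invariant chain, encoded by Cd74, fills the groove of a new class II molecule and takes it to endosomes, where cathepsins trim the chain and H2-DM exchanges its last fragment for a peptide. CIITA, encoded by Ciita, is the co-activator that the class II promoters require, and CD80 and CD86 give the co-stimulatory signal through CD28 on the T cell. In the spinal cord, resting microglia are known for low class II levels, whereas activated microglia, recruited macrophages, dendritic cells and B cells can carry more.

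Library totals ranged from 9834447 to 12807437 counts, so a count of 0 allowed at most about 3 counts in a library of that size. Levels are given as CPM, the count per 1000000 counts of the library with TMM scaling, as the mean ± SD of 3 pools. Levels of different genes are compared only per kb of exon. That length is the union of exons over all annotated transcripts of a gene, so a ranking or ratio per kb depends on it. The lesions held more RNA of myeloid cells and less of oligodendrocytes than naïve tissue. The summed CPM of 7 pan-myeloid markers (Aif1, Itgam, Csf1r, Ptprc, Cd68, Tyrobp and Fcer1g) ranged from 79.4 to 112 in young naïve pools, from 126 to 176 in middle-aged naïve pools, from 1610 to 1646 in young injured pools and from 1695 to 2220 in middle-aged injured pools. The summed CPM of 6 oligodendrocyte markers ranged from 86589 to 101823, from 52942 to 60237, from 18228 to 20232 and from 7920 to 12431 in the same order of groups, and no marker of either list was at 0. In pooled tissue, a change in the number of cells of a type and a change in RNA per cell cannot be told apart.

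The promoters of class II genes share the X and Y boxes, short motifs known as the landing place of the RFX and NF-Y factors that hold CIITA. RefSeq windows of 250 bases before to 50 bases after the start (GRCm38.p6) were found for 5 of the 9 genes, and the 130 bases just before the start are shown for 2 class II chains, H2-Aa at chr17:34287824-34287953 on the minus strand and H2-Eb1 at chr17:34305737-34305866 on the plus strand. Capitals mark the X core AACNGATG, the Y core GATTGG and the X2 core TGACGTCA, each searched on both strands, and the second run of capitals in H2-Eb1 after its Y core is a Y core on the other strand.
H2-Aa: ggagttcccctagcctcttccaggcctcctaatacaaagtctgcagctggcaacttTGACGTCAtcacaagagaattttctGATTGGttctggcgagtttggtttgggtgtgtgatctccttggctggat
H2-Eb1: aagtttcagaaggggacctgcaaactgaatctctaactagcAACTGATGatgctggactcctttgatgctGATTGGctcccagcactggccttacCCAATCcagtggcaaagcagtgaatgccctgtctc

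The X core of H2-Eb1 began 89 bases before the start and its Y core 60 bases before it, 29 bases apart. H2-DMb1 held the same pair 30 bases apart, with the X core 92 bases before its RefSeq start. H2-Aa had no X core in these letters, but its X2 core began 74 bases and its Y core 49 bases before the start. Among 32851 promoter windows the X core was in 2.32%, the Y core in 16.1% and the X2 core in 1.79%, and an X core followed by a Y core on the same strand within 60 bases was in 13 windows, or 0.0396%. Those 13 included 4 class II genes, H2-Eb1, H2-Eb2, H2-DMb1 and H2-DMb2. No H2-DMa window held an X or X2 core, and 1 of them held a Y core, 199 bases before its start. Both windows (chr17:34122582-34122881 and chr17:34125268-34125567) lie inside the annotated gene, away from its first base at 34119541. The sequence before other starts of H2-DMa was not searched. Cd80 held none of the X and Y cores in its window, which also lies inside the annotated gene (chr16:38458683-38458982). These matches are descriptions of letters and were not tested as binding sites.

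The first question was how the class II genes differed between injured and naïve white matter of young mice. All 9 genes were higher in the lesions, by log2 fold changes from 1.83 to 8.21, with the classical chains and the invariant chain at the top and H2-DMa and Cd80 at the bottom. Each of the 9 passed the edgeR quasi-likelihood test at a Benjamini-Hochberg adjusted p under 0.05, and in each every injured pool lay above every naïve pool. Over all genes tested, 28.3% were called higher in young lesions and 35.0% had every injured pool above every naïve pool. The median log2 fold change was 3.42 over the 9 genes and 0.00064 over all genes. Of the 9, 6 (H2-Aa, H2-Ab1, H2-Eb1, H2-DMb1, Ciita and Cd80) reached the filter's level in no whole naïve group and passed it only through the lesions, so a difference was built into their selection for the test.

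**Figure D1:**
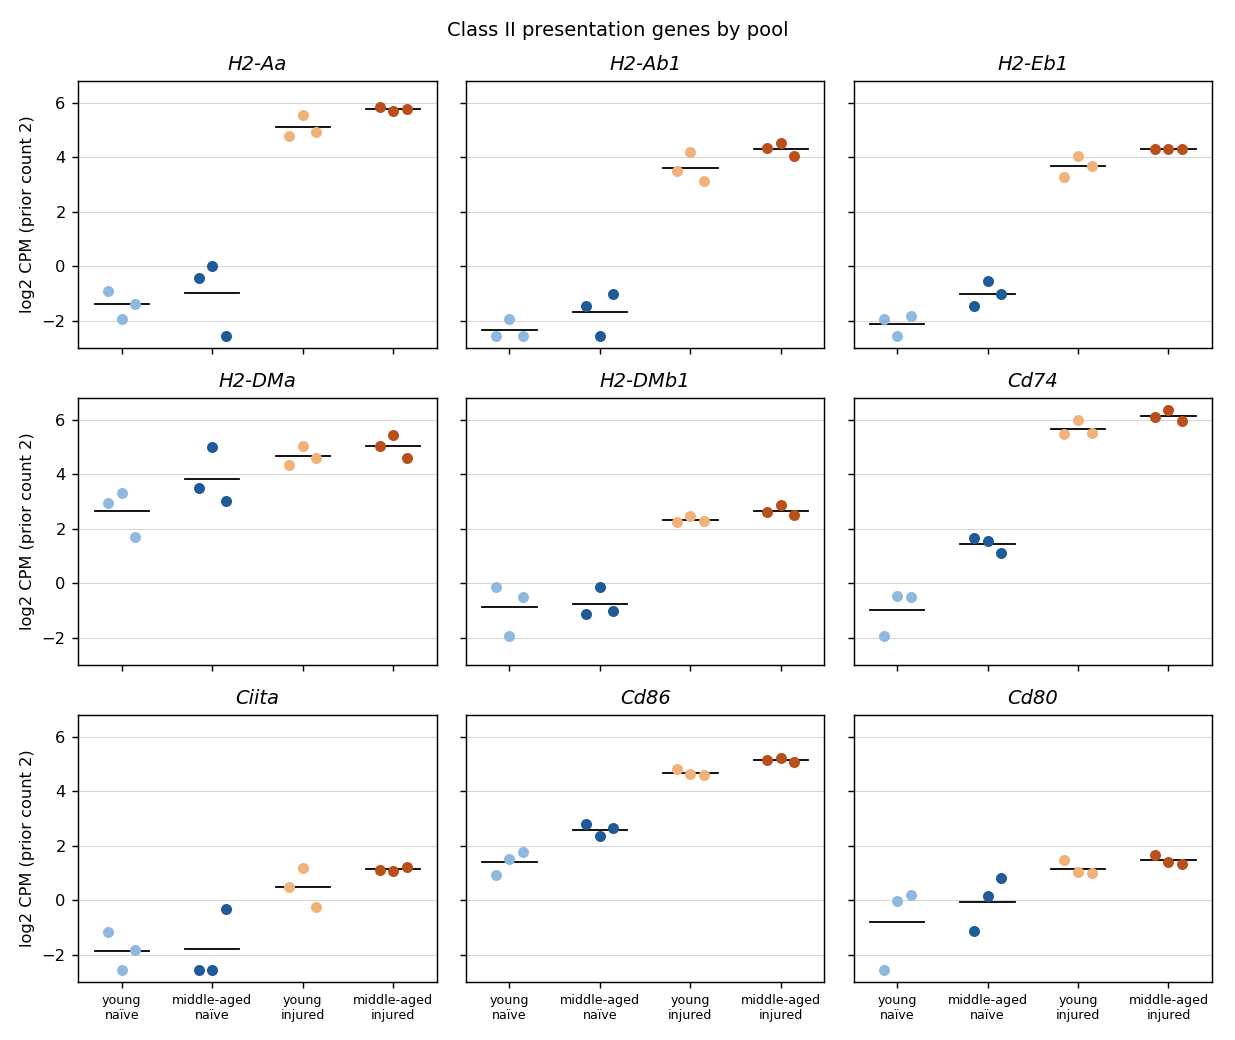
Level of each of the 9 genes in log2 CPM (with a prior count of 2, on the vertical axis) in each of the 12 pools, by group on the horizontal axis. Points are pools and lines are means of 3 pools. The injured pools of H2-Aa, H2-Ab1, H2-Eb1 and Cd74 stand far above the naïve pools at both ages, whereas those of H2-DMa overlap the naïve pools in middle-aged mice.

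Among the chains that form the peptide groove, H2-Aa encodes the alpha chain of I-A (ENSMUSG00000036594, chr17:34282744-34287823, minus strand, GRCm38). H2-Aa was at 0.364, 0.0905 and 0.215 CPM in the young naïve pools, from 4, 1 and 2 counts. It was at 27.2, 47.2 and 30.6 CPM in the young injured pools, from 371, 609 and 407 counts. The groups did not overlap, and the log2 fold change was 7.22 ± 0.51 (SE, adjusted p = 3.38e-08, edgeR). The ratio of pooled counts was 156, with a 95% counting interval from 75.4 to 388. In middle-aged mice H2-Aa went from 0.575, 0.838 and 0 CPM in naïve pools to 57.4, 51.3 and 54.2 CPM in injured pools. The middle-aged lesions were close to each other and all above the naïve pools, with a log2 fold change of 6.92 ± 0.46 (adjusted p = 1.69e-08). It was 7.64 without middle-aged naïve replicate 2 and 6.26 without replicate 3.

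H2-Ab1 encodes the beta chain that pairs with H2-Aa (ENSMUSG00000073421, chr17:34257689-34269419, plus strand). Its naïve signal was at the limit of the depth, with 0, 1 and 0 counts in the young naïve pools and 2, 0 and 4 counts in the middle-aged ones. The young injured pools held 11.1, 18.3 and 8.50 CPM and the middle-aged injured pools 19.9, 22.9 and 16.5 CPM. No injured pool came near a naïve one. From pooled counts the young ratio was 393 with a 95% counting interval from 70.3 to 15566, and the fitted log2 fold change of 8.21 ± 0.66 (adjusted p = 1.18e-07, edgeR) rests on 1 naïve count and became 10.2 without young naïve replicate 2. The middle-aged log2 fold change was 6.67 ± 0.51 (adjusted p = 6.52e-08) and became 7.48 without middle-aged naïve replicate 3.

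H2-Eb1 encodes the beta chain of I-E (ENSMUSG00000060586, chr17:34305867-34316674, plus strand). C57BL/6 mice lack I-E at the cell surface because their alpha chain gene, H2-Ea, is defective, and H2-Ea had 0 counts in all 12 pools. H2-Eb1 had 1, 0 and 1 counts in young naïve and 2, 5 and 4 counts in middle-aged naïve pools. Its injured pools were at 9.53, 16.4 and 12.5 CPM in young and 19.8, 19.5 and 19.5 CPM in middle-aged mice, again without overlap. The ratio of pooled counts was 199.8 in young mice (95% counting interval 55.0 to 1654) and 57.8 in middle-aged mice (32.1 to 116). The fitted log2 fold changes were 7.42 ± 0.46 (adjusted p = 1.04e-08) and 5.81 ± 0.36 (adjusted p = 8.54e-09) by edgeR.

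Cd74, the invariant chain (ENSMUSG00000024610), reached the highest level per kb of exon in the lesions, 30.2 ± 6.2 CPM in young and 42.0 ± 6.0 CPM in middle-aged mice. It was at 0.0910, 0.543 and 0.537 CPM in the young naïve pools, from 1, 6 and 5 counts, and at 2.97, 2.72 and 1.998 CPM in the middle-aged naïve pools, from 31, 26 and 25 counts. The injured pools were at 44.4, 62.8 and 45.0 CPM in young and at 68.4, 81.5 and 61.7 CPM in middle-aged mice. All injured pools were above all naïve pools, and the middle-aged naïve pools were also all above the young naïve ones. The log2 fold change after injury was 7.01 ± 0.34 (adjusted p = 8.21e-10) at the young and 4.79 ± 0.26 (adjusted p = 2.69e-09) at the middle age by edgeR.

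The genes of the peptide exchange factor H2-DM had smaller fold changes. H2-DMb1, its beta chain (ENSMUSG00000079547, chr17:34153072-34160230, plus strand), was at 0.728, 0.0905 and 0.537 CPM in young naïve pools and at 4.55, 5.42 and 4.74 CPM in young injured pools. In middle-aged mice it was at 0.288, 0.734 and 0.320 CPM in naïve and at 5.89, 7.18 and 5.52 CPM in injured pools. The groups were apart at both ages, with log2 fold changes of 3.42 ± 0.48 (adjusted p = 2.98e-05) and 3.80 ± 0.48 (adjusted p = 9.64e-06, edgeR). Its transcripts share 31.4% of their 31-base words with H2-DMb2, a near copy, so counts may have been split between both genes. H2-DMb2 was called higher too, at 1.74 in young and 2.48 in middle-aged lesions on the log2 scale.

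H2-DMa, the alpha chain of H2-DM (ENSMUSG00000037649, chr17:34119541-34139101, plus strand), had the highest naïve level of the 9 genes per kb of exon, 1.99 ± 0.995 CPM in young mice. It was at 7.55, 9.87 and 3.11 CPM in young naïve pools and at 20.2, 32.3 and 24.0 CPM in young injured pools, with no overlap and a log2 fold change of 1.88 ± 0.48 (adjusted p = 0.00378, edgeR). In middle-aged mice it was at 11.03, 32.2 and 7.99 CPM in naïve and at 32.5, 43.3 and 24.1 CPM in injured pools. Middle-aged naïve replicate 2 lay at the level of the lesions and above the lowest of them, so those groups overlapped. The log2 fold change there was 0.98 ± 0.45 and did not pass the threshold (adjusted p = 0.0763). Without that pool it was 1.82 and passed (adjusted p = 0.000602), and it also passed with library totals alone (0.0417) and without a filter on low counts (0.00289). Of the exonic bases of H2-DMa, 10.4% overlap Brd2 on the other strand, a gene with 1150 to 2321 counts per pool, and use of strand in the counting is not given in the sources used here.

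Ciita, the class II co-activator (ENSMUSG00000022504, chr16:10480059-10528418, plus strand), was low in every group. It had 3, 0 and 1 counts in young naïve and 0, 0 and 8 counts in middle-aged naïve pools. Injured pools held 17, 27 and 9 counts in young and 24, 24 and 25 counts in middle-aged mice, or 0.677 to 2.09 and 1.91 to 2.16 CPM. All injured pools were above the naïve pools of their age. The log2 fold change was 3.28 ± 0.98 (adjusted p = 0.0110) at the young and 3.04 ± 0.87 (adjusted p = 0.00772) at the middle age by edgeR. Without young naïve replicate 1, which held 3 of the 4 young naïve counts, the young value was 4.48, and the adjusted p of the young call was at most 0.0496 over the fits run without the myeloid scaling. All middle-aged naïve counts came from replicate 3, and without it the fitted value was 7.56. Per kb of exon, Ciita was at 0.140 ± 0.075 CPM in young and 0.212 ± 0.013 CPM in middle-aged lesions, the lowest of the 9 genes. Dexi overlaps 3.45% of its exonic bases on the other strand and had 35 to 81 counts in injured and 86 to 149 counts in naïve pools.

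Of the co-stimulatory ligands, Cd86 (ENSMUSG00000022901, chr16:36603869-36666081, minus strand) was already measured in naïve tissue. It was at 1.73, 2.72 and 3.22 CPM in young naïve pools and at 27.8, 24.6 and 24.0 CPM in young injured pools. In middle-aged mice it was at 6.71, 4.93 and 6.07 CPM in naïve and at 35.5, 37.2 and 33.1 CPM in injured pools. No group overlapped another, and within naïve and within injured tissue the middle-aged pools were the higher ones. The log2 fold change after injury was 3.32 ± 0.22 (adjusted p = 1.90e-08) at the young and 2.57 ± 0.20 (adjusted p = 9.04e-08) at the middle age by edgeR.

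Cd80 (ENSMUSG00000075122, chr16:38455561-38496335, plus strand), the other ligand of CD28, was scarcer and its change less certain. It was at 0, 0.815 and 0.967 CPM in young naïve and 2.64, 1.86 and 1.81 CPM in young injured pools. In middle-aged mice it was at 0.288, 0.943 and 1.60 CPM in naïve and 2.98, 2.47 and 2.33 CPM in injured pools. The groups were apart at both ages. The log2 fold change was 1.83 ± 0.71 (adjusted p = 0.0407) at the young and 1.43 ± 0.66 (adjusted p = 0.0780) at the middle age by edgeR. The young call was lost when any 1 of young naïve replicates 1 and 2, the 3 young injured pools or the 3 middle-aged injured pools was left out (adjusted p from 0.0571 to 0.117), and without young naïve replicate 1, the pool at 0, the log2 fold change was 1.24. The middle-aged value reached an adjusted p of 0.0242 without young naïve replicate 1 and 0.0359 without middle-aged naïve replicate 3, the latter with a log2 fold change of 2.08. With all pools it also passed by DESeq2 (1.47, adjusted p = 0.0451) and by edgeR without a filter on low counts (adjusted p = 0.0366).

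In middle-aged lesions 7 of the 9 genes were called higher, against 29.2% of all genes tested, and 8 of 9 had every injured pool above every naïve pool, against 31.5%. The median log2 fold change was 3.80 over the 9 genes and −0.03 over all genes. H2-DMa and Cd80 were those not called. As in young mice, H2-Aa, H2-Ab1, H2-Eb1, H2-DMb1, Ciita and Cd80 had passed the filter only through the lesions. A difference was thus built into their selection for the test.

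**Figure D2:**
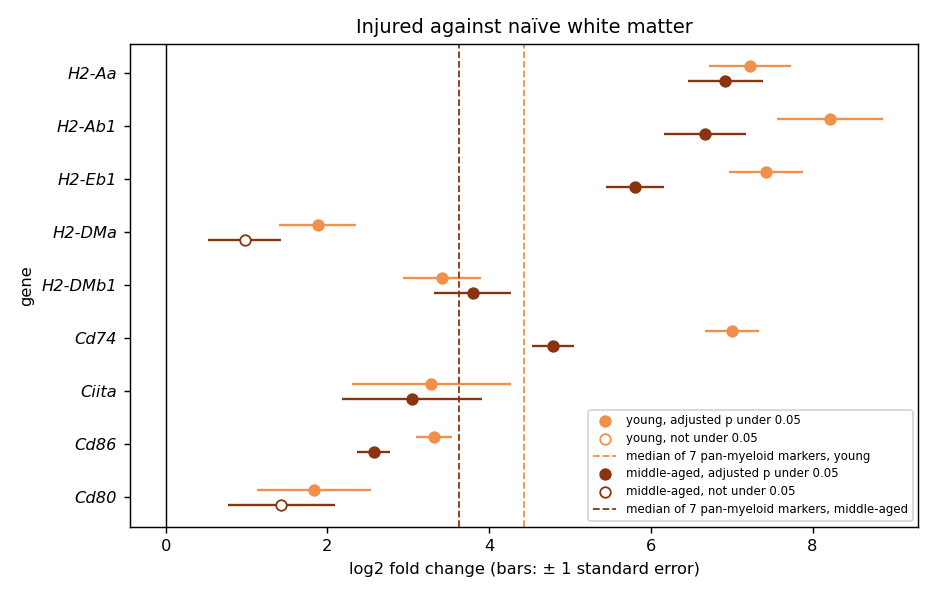
Log2 fold change of injured against naïve white matter on the horizontal axis for each of the 9 genes, in young and middle-aged mice. Points are edgeR estimates from 3 pools per group, bars are ± 1 standard error, filled points have an adjusted p under 0.05, and dashed lines are the medians of the 7 pan-myeloid markers, 4.43 in young and 3.62 in middle-aged mice. H2-Aa, H2-Ab1, H2-Eb1 and Cd74 lie to the right of both lines.

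The 9 genes were next set beside the pan-myeloid markers. All 7 markers were called higher in the lesions at both ages, against 28.3% of all genes in young and 29.2% in middle-aged mice. When libraries were scaled to the mean of those markers, 4 of the 9 genes (H2-Aa, H2-Ab1, H2-Eb1 and Cd74) were called higher in the lesions at each age, against 1.15% of all genes in young and 2.16% in middle-aged mice. Of these 4, H2-Aa, H2-Ab1 and H2-Eb1 had passed the filter only through the lesions. With that scaling H2-DMa was at −2.60, Cd86 at −1.04 and Cd80 at −2.47 on the log2 scale in young lesions, and these 3 were called lower. H2-DMb1 was at −0.93 and Ciita at −0.99, neither called (adjusted p = 0.143 and 0.417, edgeR). The scaling lowered nearly all genes alike, with a median over all genes of −4.39 in young and −3.62 in middle-aged mice and 93.6% and 92.2% of genes called lower, so a value below 0 here is a place relative to the myeloid markers. As a difference from the mean log2 CPM of the markers, H2-Aa was at −4.17 ± 0.59 in young naïve pools and at −2.02 ± 0.37 in young injured pools. Cd74 was at −3.74 ± 0.73 in young and −2.37 ± 0.51 in middle-aged naïve pools, and at −1.46 ± 0.25 and −1.22 ± 0.17 in the lesions. Cd86 went from −1.37 ± 0.30 in young naïve to −2.43 ± 0.18 in young injured pools. These values use a prior count of 2, which lifts genes with few counts in naïve pools, and the part of myeloid cell number in the results was not tested.

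**Figure D3:**
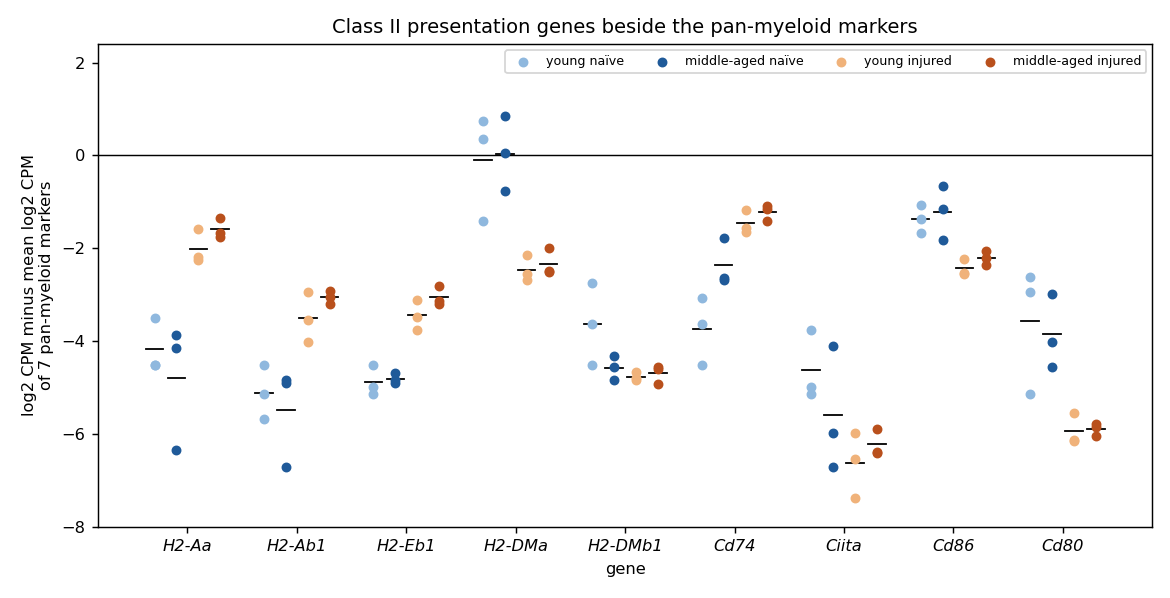
Log2 CPM of each of the 9 genes minus the mean log2 CPM of 7 pan-myeloid markers (vertical axis), for each pool of the 4 groups. Points are pools and lines are means of 3 pools. The injured pools of H2-Aa, H2-Ab1, H2-Eb1 and Cd74 lie nearer to 0 than the naïve pools of the same age, whereas those of H2-DMa, Cd86 and Cd80 lie farther below it.

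Relative to exon length, Cd74 and then H2-Aa had the highest levels in the lesions at both ages. In CPM per kb, in young lesions H2-Aa (9.21 ± 2.81), H2-DMa (7.39 ± 1.80), Cd86 (6.96 ± 0.56), H2-Eb1 (6.59 ± 1.78) and H2-Ab1 (4.91 ± 1.97) followed Cd74, and neighbours in that order lay within their spread. H2-DMb1 (2.92 ± 0.27), Cd80 (0.567 ± 0.126) and Ciita (0.140 ± 0.075) were lower. The alpha and beta chains of I-A kept a like ratio, with H2-Aa over H2-Ab1 at 1.95 ± 0.42 per kb in young and 1.90 ± 0.36 in middle-aged lesions. Cd74 over H2-Aa was 3.34 ± 0.34 and 2.95 ± 0.56, and Cd86 over Cd80 was 12.5 ± 1.6 and 13.9 ± 1.7. For H2-Aa over H2-Ab1 and for Cd86 over Cd80 the difference between ages was smaller than the SD of either group. For Cd74 over H2-Aa the pools of both ages overlapped, at 3.01 to 3.69 and 2.57 to 3.60.

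The second question was whether age moved the class II genes. In naïve white matter 2 of the 9 genes, Cd74 and Cd86, were called higher in middle-aged mice, against 2.02% of all genes tested. Cd74 was higher by a log2 fold change of 2.70 ± 0.41 (adjusted p = 0.00284, edgeR), and its ratio of pooled counts was 6.59 (95% counting interval 3.58 to 13.3). Cd86 was higher by 1.22 ± 0.23 (adjusted p = 0.00920). In a model of the 6 naïve pools alone both log2 fold changes were alike (2.70 and 1.22), but neither was called (adjusted p = 0.157 for Cd74 and 0.252 for Cd86), in a fit that called 78 genes in all against 603. Including H2-Eb1, 3 of the 9 genes had every middle-aged pool above every young pool, against 7.78% of all genes. H2-Eb1 was at 2.23 ± 0.76 (adjusted p = 0.130), from 2 counts in all young naïve pools together.

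The other members in naïve tissue were not called. H2-DMa was at 1.29 ± 0.48 (adjusted p = 0.161, edgeR), with middle-aged naïve replicate 2 far above the rest, and was called without a filter on low counts (0.00307). H2-Ab1 was at 2.19 ± 1.26, H2-Aa at 0.94 ± 0.85, Ciita at 0.83 ± 1.20, Cd80 at 0.71 ± 0.75 and H2-DMb1 at −0.04 ± 0.59. The pan-myeloid markers moved the same way, 5 of 7 being called higher in middle-aged naïve tissue, against 2.02% of all genes. Their median log2 fold change was 1.17. When libraries were scaled to those markers, 1 of the 9 genes, Cd74, was called higher with age in naïve tissue, at 1.72 (adjusted p = 0.00626, edgeR), against 0.605% of all genes. Cd86 was then at 0.23 and was not called (adjusted p = 0.563). The part of myeloid cell number in the Cd74 and Cd86 values was not tested.

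In the lesions 0 of the 9 genes were called by age with edgeR, against 0.240% of all genes called higher. All 9 estimates were above 0, from 0.30 for Cd80 to 0.65 for H2-Ab1, with a median of 0.48 against 0.00203 over all genes. At an unadjusted p under 0.05 there were 3, against 3.18% of all genes higher at that threshold, namely H2-Eb1 at 0.61 ± 0.24, Cd74 at 0.48 ± 0.21 and Cd86 at 0.47 ± 0.18. Their adjusted p by edgeR was 0.365, 0.457 and 0.355. By DESeq2 0 of the 9 were called as well, against 0.908% of all genes called higher. In a model of the 6 injured pools alone 1 of the 9, Cd86, passed (adjusted p = 0.0291, edgeR), in a fit that called 2.04% of all genes higher. For 4 genes, H2-Aa, H2-Eb1, H2-DMb1 and Cd86, every middle-aged lesion was above every young lesion, against 11.1% of all genes. An exact permutation test of 3 pools against 3 cannot give less than p = 0.1. The pan-myeloid markers in the lesions differed by a median log2 fold change of 0.28 with age, with 0 of 7 called.

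**Figure D4:**
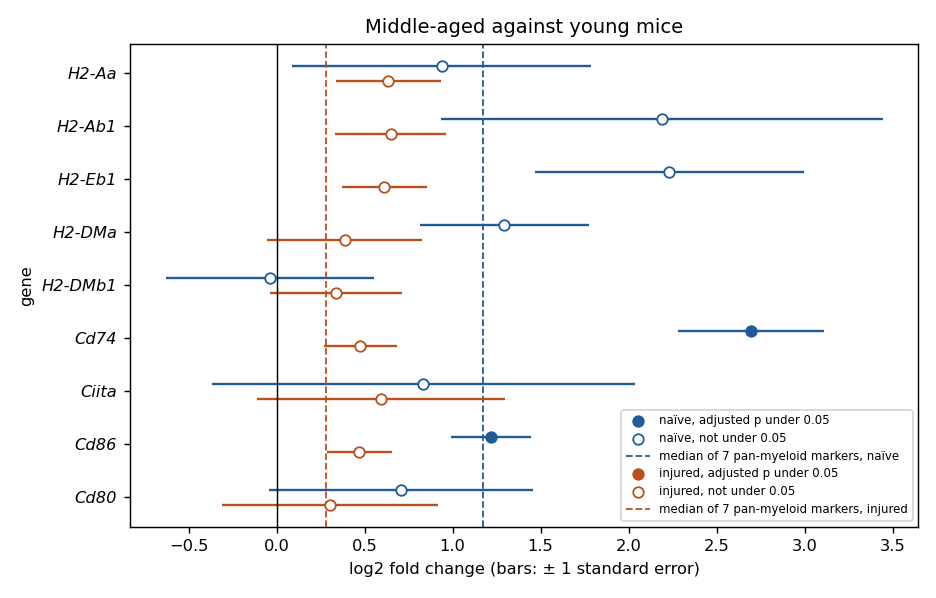
Log2 fold change of middle-aged against young mice on the horizontal axis for each of the 9 genes, in naïve and injured white matter. Points are edgeR estimates from 3 pools per group, bars are ± 1 standard error, filled points have an adjusted p under 0.05, and dashed lines are medians of the 7 pan-myeloid markers, 1.17 in naïve and 0.28 in injured tissue. Only Cd74 and Cd86 in naïve tissue are filled.

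The change after injury was then compared between ages by the interaction term. It passed the threshold for 0 of the 9 genes with edgeR, against 0.139% of all genes, and 2 had an unadjusted p under 0.05, against 9.93% of all genes. The estimate for Cd74, middle-aged minus young, was −2.22 ± 0.47 on the log2 scale, with an adjusted p of 0.0920 by edgeR. DESeq2 gave it an adjusted p of 0.00395 and the fit without a filter on low counts 0.00155, so that 1 of the 9 was called by either, against 1.60% and 1.21% of the genes in those fits. Over the fits run without the myeloid scaling its adjusted p ranged from 0.00155 to 0.219. The estimate for Cd86 was −0.75 ± 0.29 (adjusted p = 0.396, edgeR). The remaining estimates were negative for 6 genes and positive for H2-DMb1, at 0.38 ± 0.71. This comparison and those of injury and age share the same pools.

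The genes that serve the class II pathway were taken from fixed lists. All 8 endosomal proteases and turnover genes were called higher in the lesions at both ages, with a median log2 fold change of 3.61 in young and 3.60 in middle-aged mice. Over all genes, 28.3% were called higher in young and 29.2% in middle-aged lesions. Ifi30, which reduces disulfide bonds of antigens, rose by 5.88 ± 0.24 in young lesions, and Ctsd, the aspartic protease cathepsin D, by 4.71 ± 0.21. The smallest changes were those of Sppl2a, which clears the last stub of the invariant chain from the membrane, at 0.92 ± 0.10, and of Marchf1, a ubiquitin ligase that removes class II and CD86 from the surface, at 0.64 ± 0.21. In naïve tissue 3 of the 8 were called higher with age, against 2.02% of all genes.

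Of 7 factors that bind the class II promoter, 2 were called higher and 1 lower in young lesions, and 4 higher and 1 lower in middle-aged lesions. Over all genes, 28.3% were called higher and 26.3% lower in young lesions, and 29.2% and 29.3% in middle-aged ones. The 2 of 7 called higher in young lesions lay close to the share over all genes. Nfya, a subunit of the Y box factor NF-Y, was higher by 2.02 ± 0.17 in young lesions. Nfyc, another subunit, was higher by 0.43 ± 0.17, and Rfxap, part of the RFX complex at the X box, was lower by 0.78 ± 0.16 (log2 fold change −0.78). The list's median was 0.13 in young and 0.29 in middle-aged mice.

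Of 5 other class II chains 3 could be tested. H2-DMb2 was called higher at both ages, as was H2-Ob, the beta chain of the H2-DM inhibitor H2-O, at 1.72 ± 0.55 in young and 1.90 ± 0.53 in middle-aged lesions. H2-Oa, its alpha chain, was at 0.75 ± 0.71 in young lesions (adjusted p = 0.398, edgeR) and was called at 2.09 ± 0.77 in middle-aged ones. H2-Eb2 had 4 counts at most in any pool.

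Interferon gamma is the classical inducer of Ciita. Its gene, Ifng, had 1 count in a single young naïve pool and 0 counts in the other 11, which at this depth allows up to 3 counts per library. Of the 6 tested genes of its signalling path, 4 were called higher in the lesions at both ages. Over all genes, 28.3% were called higher in young and 29.2% in middle-aged lesions. Irf1, a transcription factor of the pathway, was higher by 2.22 ± 0.31 in young lesions, and the receptor chain Ifngr2 by 1.93 ± 0.14. Ifngr1, the other receptor chain, was higher by 1.45 ± 0.12, whereas the kinases Jak1 and Jak2 were at 0.17 ± 0.12 and 0.25 ± 0.20 and were not called.

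Among the other co-stimulatory and co-inhibitory ligands, 4 of 5 tested genes were called higher in young lesions, against 28.3% of all genes. The 4 were Tnfsf9 (4-1BB ligand) at 2.89 ± 0.68, Cd274 (PD-L1) at 2.64 ± 0.31, Cd276 at 2.48 ± 0.35 and Cd40 at 1.60 ± 0.54. Icosl, the ligand of ICOS, was at 0.47 ± 0.26 in young lesions and was called lower in middle-aged ones, at −0.71 ± 0.25. Pdcd1lg2, Tnfsf4 and Cd70 had 6 counts at most in any pool and were not tested.

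**Figure D5:**
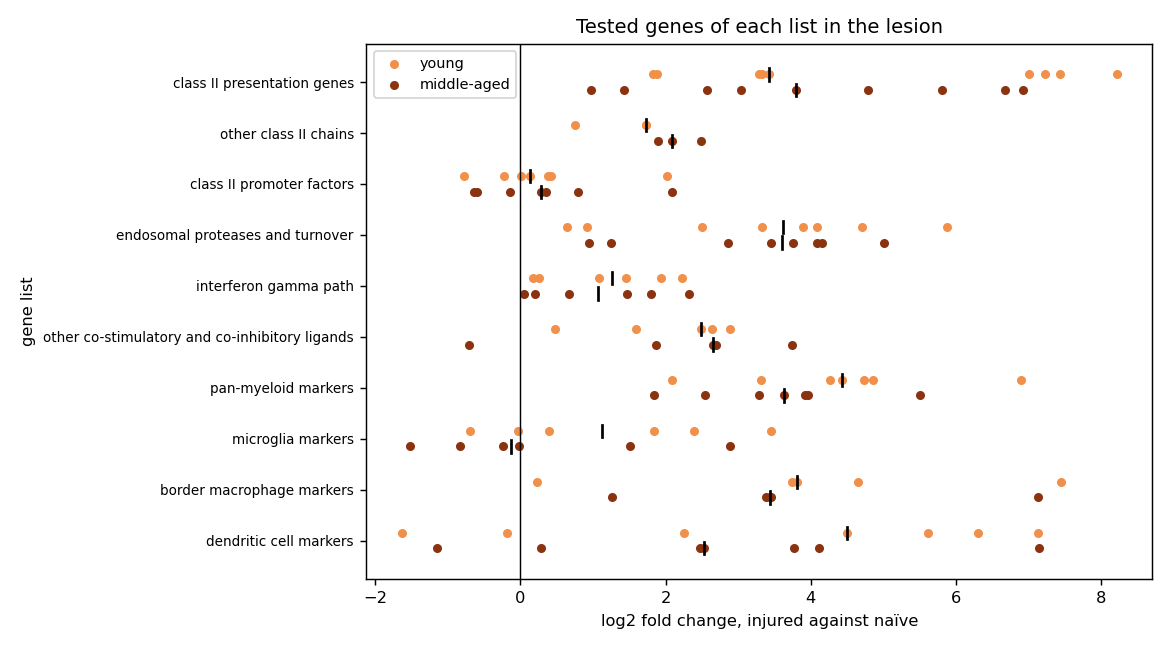
Log2 fold change of injured against naïve white matter (horizontal axis) for every tested gene of 10 gene lists, in young and middle-aged mice. Each point is 1 gene and the black bars are list medians. The class II presentation genes have medians of 3.42 and 3.80 and the endosomal proteases 3.61 and 3.60, whereas the promoter factors have medians of 0.13 and 0.29 with Nfya apart at 2.02 and 2.09.

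On the side of the T cell, the RNA of the receptors that read these molecules was uneven. Cd28, the receptor of CD80 and CD86, had 0 to 3 counts in naïve pools, 472 to 509 counts in young and 420 to 505 counts in middle-aged lesions. Cd4, the class II co-receptor, had 0 counts in all 6 naïve pools and 11 to 29 and 16 to 42 counts in young and middle-aged lesions, at least 16.8-fold and 23.6-fold higher against a floor of 3 counts per group. Lag3, an inhibitory class II receptor, was at 0.77 ± 0.42 in young lesions (adjusted p = 0.133, edgeR). Ctla4, which competes with CD28, had 7 counts at most in any pool. Of the T cell markers, the receptor subunits Cd3e and Cd3d had 5 and 2 counts at most in any pool, Cd8a had 8 at most, and Cd3g had 3 to 9 and 6 to 26 counts in young and middle-aged lesions. Cd247, the only one of the 5 that could be tested, had 10 to 39 counts in naïve and 32 to 52 in injured pools and was not called, at 0.21 ± 0.45 in young and 0.71 ± 0.44 in middle-aged lesions.

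Markers of the cells that can carry class II were read beside these results. Over all genes, 28.3% were called higher and 26.3% lower in young lesions, and 29.2% and 29.3% in middle-aged ones. Of 5 monocyte markers all were called higher in the lesions at both ages, with summed CPM from 0.0905 to 0.273 in young naïve, 0.419 to 1.53 in middle-aged naïve, 75.3 to 114 in young injured and 166 to 211 in middle-aged injured pools. Of 7 dendritic cell markers 5 were higher and 1 lower. Their summed CPM was 13.2 to 20.3, 17.8 to 20.7, 30.6 to 44.8 and 45.4 to 66.7 in the same order. Most of the rise in that sum was Itgax, with means of 0.476, 2.69, 23.9 and 38.1 CPM in the same order. Cd209a had 0 to 3 counts in naïve and 14 to 34 counts in injured pools, whereas Flt3 was lower in young lesions at −1.63 ± 0.30. Of 5 border macrophage markers 4 were higher, with sums of 4.40 to 5.34, 4.55 to 10.6, 39.9 to 63.3 and 65.8 to 82.0. Of 6 microglia markers 3 were higher and 1 lower in young lesions, and 2 were higher and 2 lower in middle-aged ones. The B cell markers summed to at most 3.30 CPM in any pool. The defining Cd79a had 2 counts at most, whereas Cd79b had 0 to 7 counts in naïve and 17 to 37 in injured pools and was called higher at both ages. The part of each cell type in the class II values was not tested.

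Finally, the genes most like the class II genes were named by the correlation of log2 CPM over the 12 pools with the mean of H2-Aa, H2-Ab1, H2-Eb1 and Cd74. They were Myo1f, Apoc2, Cd300c2, Gngt2, Grn and Ezr, with Pearson r from 0.997 to 0.998. The 12 points fall into naïve and injured clusters, so any gene that differed strongly between them scored high, and 1207 of 13079 genes had an r of at least 0.95. With the group means removed, the closest were Psenen, Ntmt1, Rpl4, Myo1g, Mcrs1 and Skida1, with r from 0.875 to 0.943 over the same 12 pools. Of these only Myo1g had an r over 0.95 on the first scale (0.995). Over the 36 pairs of members, r with group means removed ranged from −0.56 for H2-Aa with Cd80 to 0.78 for H2-Eb1 with H2-DMb1. Among the averaged genes it ranged from −0.54 for H2-Aa with H2-Ab1 to 0.41 for H2-Aa with H2-Eb1. These r values include the naïve pools, where H2-Aa, H2-Ab1 and H2-Eb1 had 8 counts at most. They therefore cannot show whether the averaged genes varied together within the lesions. In young lesions all were highest in replicate 2, H2-Aa at 47.2, H2-Ab1 at 18.3, H2-Eb1 at 16.4 and Cd74 at 62.8 CPM. In middle-aged lesions H2-Aa and H2-Eb1 were highest in replicate 1, and H2-Ab1 and Cd74 in replicate 2. These are descriptions over 12 pools and carry no test.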

How the data were processed

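RNA from 12 laser-captured pools (4 groups of 3, 5 mice each) was amplified when libraries were built. Per the labels and the study's methods, the authors checked reads with FastQC 0.11.4, used TopHat 2.0.10 over Bowtie 1.1.2 for mapping to GRCm38, and deposited raw counts per Ensembl gene from featureCounts. Groups came from the titles. Amplified reads are not independent molecules, so counting intervals (95%) and floors (3 counts) cover counting error only, and pools may share technical steps, so p-values measure the spread between these pools. Pools of a group differed by more than counting noise (chi-square per degree of freedom at least 7.48).

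Counts were fitted with edgeR 4.0.16 in R 4.3.3 (filterByExpr, TMM, quasi-likelihood F test, 1 coefficient per group, all 12 pools), with Benjamini-Hochberg adjustment over 15866 genes and a threshold of 0.05. The study itself named DESeq2; here DESeq2 1.42.0 was an alternative. Other alternatives were size factors, library totals, upper-quartile factors, no or a stricter filter (10 counts), the replicate number as a block, each pool left out, only the compared pools, and scaling to pan-myeloid markers. Scripts were tested on simulated data. Symbols and exon lengths came from GENCODE vM21 and promoters from RefSeq. The members and gene lists were chosen with earlier results of these data known. From each other list up to 4 genes are named. They are the 2 called with the largest and the 2 called with the smallest change in young lesions. Genes with no or hardly any counts are named as well. Jak1, Jak2, Icosl, H2-Oa, H2-Eb2, Pdcd1lg2, Tnfsf4, Cd3e, Cd3g, Cd8a and Itgax were named after their values were seen. Some listed genes are not reported here.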

Additional observations from a re-analysis of the deposited data

How the results depend on the processing

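Without a filter on low counts, and with DESeq2, 1 of the 9 genes (Cd74) passed for the age difference in the injury effect. In models of the compared pools alone, 0 of the 9 passed for age in naïve and 1 in injured tissue, where those fits called 78 and 795 of all genes against 603 and 182. Scaled to the pan-myeloid markers, 4 and 4 genes were called higher after injury in young and middle-aged mice and 1 by age in naïve tissue. The shares of all genes called higher there were 1.15%, 2.16% and 0.605%. That scaling, which moved the median of all genes by over 3 on the log2 scale after injury, turned the sign of H2-DMa (−2.60), Cd86 (−1.04) and Cd80 (−2.47) in young and of H2-DMa (−2.51), Cd86 (−1.05) and Cd80 (−2.08) in middle-aged lesions, all called lower, and of H2-DMb1 (−0.93) and Ciita (−0.99) in young and Ciita (−0.44) in middle-aged lesions, not called. It also turned H2-Aa (−0.085), Ciita (−0.19) and Cd80 (−0.34) for age in naïve tissue, and H2-Aa (0.49), H2-DMa (0.092), Ciita (0.55) and Cd80 (0.38) for the difference of injury effects, none of them called. By construction it sets the myeloid markers to no change.

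Leaving out 1 pool turned only estimates that were not called. H2-DMb1 by age in naïve tissue ranged from −0.54 to 0.53 and Ciita from −3.68 to 2.03. The difference of injury effects ranged from −0.19 to 0.88 for H2-DMb1, −0.91 to 0.25 for Cd80, −0.97 to 0.41 for H2-Aa and −1.43 to 4.27 for Ciita. The count of members called after injury stayed within 1.5 times of the main count in each of these fits. With library totals alone 5377 genes were higher and 3236 lower in young lesions, against 4483 and 4175, a median shift of 0.20.

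Same-numbered pools correlated between −0.11 and 0.15, so the numbers were not taken as pairs. With the replicate number as a block, H2-DMa in middle-aged lesions was at 1.13 and passed (adjusted p = 0.00490, edgeR), and no other member's call changed. Depth limited H2-Aa, H2-Ab1, H2-Eb1, H2-DMb1, Ciita and Cd80 in naïve pools, and Cd74 in young naïve pools (1, 6 and 5 counts).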
